A study of Schizosaccharomyces pombe with 26 samples.

Results

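The genes of the large ribosomal subunit were followed on spotted arrays of fission yeast (Schizosaccharomyces pombe), which hold 1 set of features for intergenic regions (IGR) and another for open reading frames (ORF). Members were the spots named rpl or rpp followed by a digit, which gave 85 of 5169 named IGR features and 83 of 5047 named ORF features. Of these, 3 IGR features (rpp201, rpl402 and rpl1101) and 5 ORF features (rpl3801, rpl101, rpl3702, rpl34 and rpl3002) were marked as missing on the array, so 82 IGR members and 78 ORF members were measured. The names matched 73 genes of the RefSeq annotation, 27 on chromosome I, 26 on chromosome II and 20 on chromosome III, while 12 IGR and 11 ORF members matched no single gene and are given by their array names. IGR features are named after a gene, and on which side of it they lie is not stated.

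Chromatin immunoprecipitation (ChIP) DNA and input DNA of the same preparation were labelled with Cy3 and Cy5 and hybridised together. Anti-myc ChIP was done in a strain carrying myc-tagged Med15 (Med15-myc, n = 3 for each array type), and anti-histone H3 ChIP in a strain lacking Med15 (Δmed15, n = 2), a strain lacking Hrp1 (Δhrp1, n = 3) and the wildtype (n = 2), all grown to mid-log phase in the rich medium YES. Med15 is a subunit of Mediator, the complex that connects gene-specific activators to RNA polymerase II, and Hrp1 is an ATP-dependent chromatin remodeller of the CHD1 type. The ChIP DNA carried Cy3 in Med15-myc replicates 1 and 3, Δmed15 replicate 2, Δhrp1 replicates 1 and 2 and both wildtype samples, and Cy5 in the others.

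The large ribosomal subunit joins amino acids at the peptidyl transferase centre and releases the nascent chain through the exit tunnel. It carries a lateral stalk of P proteins, in which P0, encoded by rpp0, anchors P1 and P2 proteins that engage the translation factors. In growing yeast the ribosomal protein genes are among the most strongly transcribed, many exist as copies encoding near-identical proteins, and in fission yeast many of their promoters carry the HomolD box, which takes the place of a TATA box, alone or with the HomolE box.

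Promoter sequences of 300 bases, from 250 bases before to 50 bases after the annotated gene start, were read from the RefSeq assembly ASM294v3 for the 73 matched genes. HomolD (CAGTCACA, either strand) was present in 46 of 73 member promoters (63.0%), against 2.68% of 5112 promoters of protein-coding genes. HomolE (ACCCTACC, either strand) was present in 17 (23.3%, against 1.62%), and 53 members (72.6%, against 3.74%) carried at least 1 of these boxes. TATAAA, by contrast, was found in 21 members (28.8%), below its share of 48.1% among all promoters. The median position of HomolD in members was −53.5 from the gene start and that of HomolE −70.0. The 6 promoters shown have HomolD and HomolE in capitals. They belong to the matched genes with the highest (rpl3201) and lowest (rpl3002) mean Med15-myc ratio over IGR features, 1 of the 7 copied pairs with identical proteins (rpl802 and rpl803, where only rpl803 has a match), and the copied pair with the least similar proteins (rpp202 and rpp203, 77.9% identical).
rpl3201 (chrII:4351628-4351927, plus strand): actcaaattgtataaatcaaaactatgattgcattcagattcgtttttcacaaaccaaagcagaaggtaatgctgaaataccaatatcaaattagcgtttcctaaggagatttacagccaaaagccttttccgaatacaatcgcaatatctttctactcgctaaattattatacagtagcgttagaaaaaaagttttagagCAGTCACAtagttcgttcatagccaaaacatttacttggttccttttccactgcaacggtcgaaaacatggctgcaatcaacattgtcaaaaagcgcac
rpl3002 (chrI:5095830-5096129, minus strand): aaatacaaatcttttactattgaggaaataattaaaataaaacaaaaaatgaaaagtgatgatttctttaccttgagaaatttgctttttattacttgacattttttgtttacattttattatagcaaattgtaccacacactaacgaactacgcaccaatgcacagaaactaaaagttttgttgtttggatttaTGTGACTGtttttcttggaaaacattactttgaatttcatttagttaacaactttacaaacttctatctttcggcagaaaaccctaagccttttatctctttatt
rpl802 (chrII:1726415-1726714, plus strand): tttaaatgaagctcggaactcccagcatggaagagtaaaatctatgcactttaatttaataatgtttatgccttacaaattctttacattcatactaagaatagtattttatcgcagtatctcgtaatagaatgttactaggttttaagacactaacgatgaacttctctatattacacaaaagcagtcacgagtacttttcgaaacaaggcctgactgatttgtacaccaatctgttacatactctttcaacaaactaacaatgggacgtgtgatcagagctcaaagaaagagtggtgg
rpl803 (chrII:601002-601301, plus strand): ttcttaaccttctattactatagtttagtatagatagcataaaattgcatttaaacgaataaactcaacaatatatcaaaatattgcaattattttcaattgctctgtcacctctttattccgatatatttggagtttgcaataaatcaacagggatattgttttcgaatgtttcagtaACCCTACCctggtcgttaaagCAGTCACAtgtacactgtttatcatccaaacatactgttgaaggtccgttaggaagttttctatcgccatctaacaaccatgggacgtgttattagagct
rpp202 (chrII:2128418-2128717, minus strand): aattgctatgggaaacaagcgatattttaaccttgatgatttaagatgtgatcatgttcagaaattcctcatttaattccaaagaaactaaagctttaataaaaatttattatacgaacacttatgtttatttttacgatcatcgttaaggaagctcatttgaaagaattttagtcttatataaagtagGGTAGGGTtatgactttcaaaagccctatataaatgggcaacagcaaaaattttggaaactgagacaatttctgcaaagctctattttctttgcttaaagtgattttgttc
rpp203 (chrI:3868839-3869138, plus strand): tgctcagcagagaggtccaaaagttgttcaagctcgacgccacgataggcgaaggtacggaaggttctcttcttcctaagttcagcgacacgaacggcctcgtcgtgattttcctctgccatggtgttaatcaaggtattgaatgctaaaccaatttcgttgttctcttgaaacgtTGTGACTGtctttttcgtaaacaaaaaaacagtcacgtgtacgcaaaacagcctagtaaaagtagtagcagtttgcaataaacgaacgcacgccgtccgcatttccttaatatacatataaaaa
In rpl3201 a single HomolD lay at −49, and in rpl3002 a reversed HomolD lay at −55. The rpl803 promoter held HomolD at −50 and HomolE at −71. The rpp202 promoter held a reversed HomolE at −61, and rpp203 a reversed HomolD at −74.

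The main measure was the log2 ratio of ChIP over input intensity as scanned, centred on the median of each array, so that 0 is the typical feature and 1 unit is a 2-fold difference. The wildtype arrays were available only as the authors' log2 H3 ChIP values, which for the other samples equal the ChIP channel less its background without division by input. These values checked the labels: over the hrp1 ORF they were −5.23, −5.99 and −4.52 in the 3 Δhrp1 samples against 1.50 and 1.41 in wildtype, and over the med15 ORF −4.74 and −4.02 in Δmed15 against −1.77 and −1.44 in wildtype. On both array types, every pair of H3 over input samples with the same ChIP dye correlated more closely than every pair with opposite dyes. Over all IGR features the H3 ratios of Δhrp1 replicates 1 and 3, labelled with opposite dyes, had a Spearman correlation of −0.51, whereas Δhrp1 replicate 3 and Δmed15 replicate 1, both with Cy5 on the ChIP DNA, had 0.56. Same-dye pairs ranged from 0.56 to 0.66 over IGR and from 0.41 to 0.61 over ORF features. Opposite-dye pairs ranged from −0.51 to 0.14 and from −0.28 to 0.25. The highest opposite-dye pair was that of Δmed15 replicates 1 and 2. For Med15-myc, replicates 2 and 3 (opposite dyes) had −0.39 over IGR and −0.40 over ORF features, replicates 1 and 2 (opposite dyes) −0.19 and −0.03, and replicates 1 and 3 (same dye) 0.30 and 0.33. IGR and ORF spots interleave on 1 grid and same-numbered IGR and ORF samples appear to be the same hybridisation, so the array types are not independent.

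Histone H3 over input was low at large subunit genes in both deletion strains. The member median was −0.87 and −0.98 in the 2 Δmed15 samples and −0.74, −0.91 and −0.69 in the 3 Δhrp1 samples over IGR features. Over ORF features it was −0.86 and −0.98 in Δmed15 and −0.84, −0.85 and −0.68 in Δhrp1. The array median is 0 by construction, and the member median lay below it in every sample, whichever dye the ChIP DNA carried. Wildtype H3 over input was not analysed here, so these ratios do not set the deletions against wildtype. Fitted with strain and dye, the IGR median was −0.85 in Δmed15 and −0.78 in Δhrp1 (all features 0.05 and 0.07) and the ORF median −0.93 and −0.70 (all features 0.01 and 0.02).

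**Figure D1:**
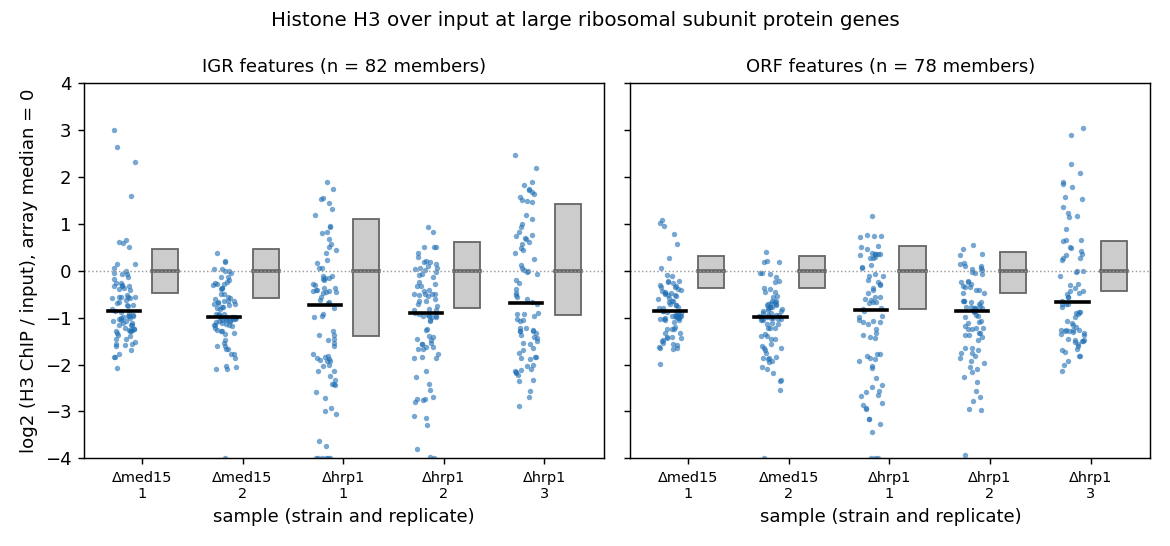
Log2 ratio of H3 ChIP over input (vertical axis, array median 0, points beyond ±4 drawn at the edge) in each Δmed15 and Δhrp1 sample, for 82 IGR and 78 ORF members. Blue points are members, black bars their medians and grey boxes the quartiles of all features. Member medians lie between −0.98 and −0.68 in the 10 sample columns, while the points spread most in Δhrp1.

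The ratio was below 0 in all 5 H3 samples for 28 of 82 IGR members (34.1%), against 7.74% of all IGR features. Over ORF features the same held for 34 of 78 members (43.6%), against 10.1% of all. No member was above 0 in all 5 samples on either array type, where 6.13% of IGR and 8.29% of ORF features were. With the ratios as scanned, limma called no feature of the array, member or not, at a Benjamini-Hochberg adjusted p under 0.05 in either strain (0.0% of all features). At an unadjusted p under 0.05, 9 IGR members (2.34% of all features) and 33 ORF members (5.39%) were lower in Δmed15, and 23 (5.14%) and 32 (7.68%) in Δhrp1. None was higher (0.141% of all IGR and 0.531% of all ORF features in Δmed15, 3.95% and 6.19% in Δhrp1).

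Members were called after local background correction (normexp) or after loess normalization within arrays. With normexp, limma called 26 of 82 IGR members lower in Δmed15 (6.05% of all features) and 42 in Δhrp1 (10.3%), and 10 of 78 ORF members in Δmed15 (1.51%) and 31 in Δhrp1 (6.0%). With loess the counts were 54 (15.3%) and 45 (11.9%) over IGR and 58 (10.4%) and 52 (11.8%) over ORF. No member was called higher under either correction, where normexp called 0.484% (Δmed15) and 6.33% (Δhrp1) of all IGR features and 0.0% and 2.45% of all ORF features higher, and loess 8.49%, 6.27%, 3.49% and 6.35%. All 26 and all 10 of the Δmed15 calls with normexp were among those with loess, as were 37 of 42 and 28 of 31 in Δhrp1.

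Of 73 names measured on both array types, 26 had H3 ratios below 0 in all 5 samples over the IGR feature and 32 over the ORF feature, and 13 were in both sets, which is 13 of 26 and 13 of 32. Nothing particular is read from that overlap. The 13 were rpl13, rpl14, rpl1702, rpl1902, rpl2001, rpl2401, rpl302, rpl3202, rpl35A01, rpl42, rpl501, rpp0 and rpp203. They were picked by these values, which are therefore given as a description. The IGR feature of rpl302, a copy encoding L3 of the peptidyl transferase region, gave −1.28 and −1.68 in Δmed15 and −2.43, −1.83 and −1.04 in Δhrp1 (mean −1.65 ± 0.54, SD, n = 5). That of rpl3202 gave −1.61 and −0.95, and −1.45, −1.85 and −2.69 (mean −1.71 ± 0.64). The strains overlapped at both genes, and at rpl302 both samples with Cy5 on the ChIP DNA were above those with Cy3. Over ORF features, rpl35A01 was lowest of the 13, with −1.47 and −2.34 in Δmed15 and −3.45, −1.92 and −1.26 in Δhrp1 (mean −2.09 ± 0.87). The ORF of rpl42 gave −0.96 and −2.10, and −2.56, −1.86 and −1.50 (mean −1.80 ± 0.60). The tightest was the ORF of rpl2001, with −1.03 and −1.40, and −1.10, −1.24 and −1.16 (mean −1.18 ± 0.14). The ORF of rpl501, whose product binds 5S ribosomal RNA, was similarly tight at −0.85 ± 0.16.

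The lowest fitted values among IGR members in Δmed15 belonged to rpl44, rpl13a-2, rpl24-3, rpl34 and rpl37, between −1.78 and −1.61, and none passed the test as scanned. The IGR feature of rpl44 was at −1.77 and −1.78 in Δmed15 and at −0.19, −0.94 and 0.05 in Δhrp1. Its samples did not overlap between the strains, and how often that held over all features was not counted. That of rpl37 was at −1.46 and −1.77, and −2.15, −2.42 and −2.21, lower in every Δhrp1 sample than in either Δmed15 sample. The share of all features with such a separation was not counted for rpl37 either. In Δhrp1 the lowest IGR values, −2.74 to −2.18, were those of rpl15, rpl21, rpl3601, rpl37 and rpl30. Those of rpl15 and rpl21 rest on Cy3 samples scanned at or near 0: rpl15 gave −8.70 and −4.48 in replicates 1 and 2 but 2.18 in replicate 3, and rpl21 −8.60 and −3.96 but 1.64. For rpl37 the 3 samples lay together, and limma with normexp gave a log2 value of −2.34 (adjusted p = 2.0e-09).

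Over ORF features the lowest members in Δmed15 were rpl35A01, rpl30, rpl3601, rpl26 and rpl3202, between −1.91 and −1.61. In Δhrp1 they were rpl39, rpl35A02, rpl35A01, rpl31 and rpl42, between −2.37 and −1.82. The ORF of rpl35A02 was at −1.66 and −1.35 in Δmed15 and at −1.93, −1.98 and −2.14 in Δhrp1, with limma and normexp giving −2.12 in Δhrp1 (adjusted p = 0.00073). By contrast rpl39, which lines the exit tunnel, ranged from −8.75 to 2.07 over the Δhrp1 samples, and rpl31 from −7.52 to 1.84.

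A few members stood above the array median. Over IGR features the highest in Δmed15 were rpl35A02 (1.03), rpl21 (0.80), rpl2301 (0.29), rpl1201 (0.22) and rpl20 (0.10), and in Δhrp1 rpl4302 (0.81), rpl801 (0.69), rpl2801 (0.56), rpl4 (0.43) and rpl3602 (0.39), none past the test. The value of rpl35A02 came from samples of opposite sign, 2.99 and −0.93 in Δmed15, and became −0.66 with loess (adjusted p = 0.028). Over ORF features rpp102 (0.60), rpl21 (0.57), rpl3201 (0.25), rpl1901 (0.14) and rpl24-3 (−0.19) were highest in Δmed15, and rpl21 (0.74), rpl3201 (0.52), rpl2301 (0.38), rpl7a (0.36) and rpp102 (0.05) in Δhrp1. The ORF of rpl3201, at 0.56 and −0.05, and 0.37, 0.35 and 0.63, was above the array median in 4 of 5 samples, where its copy rpl3202 was below it in all 5.

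Among the P stalk genes, rpp0 had H3 ratios of −1.23 and −1.10 in Δmed15 and −0.47, −1.56 and −0.04 in Δhrp1 over its IGR feature, and of −0.98 and −0.69, and −0.31, −0.99 and −0.36 over its ORF. With normexp, limma called the IGR feature lower in Δmed15 (log2 −1.26, adjusted p = 0.036). The P1 gene rpp102 differed between its features: its IGR feature was below 0 in 5 of 5 samples (mean −1.34 ± 0.47), and its ORF, at 1.01 and 0.19, and −0.11, −0.65 and 0.49, was on both sides of 0. The P2 gene rpp203 was below 0 in all 5 samples on both features (means −0.72 ± 0.63 and −1.05 ± 1.09). The other stalk features had IGR means of −0.34 (rpp103), −0.28 (rpp101) and −0.53 (rpp202) and ORF means of −0.29 (rpp103), −1.04 (rpp101), −0.50 (rpp201) and −0.69 (rpp202), each below 0 in 2 to 4 of 5 samples.

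Other genes of the translation apparatus were compared by their fitted medians, with Δmed15 before Δhrp1. Small subunit genes stood at −0.99 and −0.73 over 52 IGR features and at −1.07 and −0.93 over 55 ORF features. Translation elongation factor genes stood at −0.74 and −0.59 (5 IGR features) and −0.82 and −0.56 (4 ORF features). The large subunit genes lay close to both lists. RNA polymerase I genes were nearer to 0, at −0.17 and −0.45 (7 IGR features) and −0.31 and −0.04 (6 ORF features), as were mitochondrial ribosomal protein genes at −0.17 and −0.02 (45) and −0.18 and −0.35 (44). A list of regulators of ribosomal protein genes, drawn from forkhead and Tor pathway genes among others, stood above 0, at 0.08 and 0.20 (10) and 0.29 and 0.37 (11). As scanned, no feature of any of these lists was called.

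No difference in H3 over input between the deletion strains passed the test at any member. The difference of Δhrp1 minus Δmed15 had a member median of −0.02 over IGR and 0.19 over ORF features (all features 0.05 and 0.03), and limma called no member and no feature of the array as scanned (0.0% of all). At an unadjusted p under 0.05, 2 of 78 ORF members were higher in Δhrp1 (0.878% of all features) and none lower (0.388%), and no IGR member differed (0.202% of all higher and 0.0806% lower). The largest ORF difference was that of rpl7a at 1.63 ± 0.39 (SE, adjusted p = 0.999), with −1.50 and −1.04 in Δmed15 against 0.73, 0.10 and 0.36 in Δhrp1. The ORF of rpl27a, at −0.93 and −1.14 against 0.11, 0.01 and −0.02, differed by 1.08. In both genes every Δhrp1 sample was above every Δmed15 sample, and how often that held over all features was not counted. The remaining ORF extremes were rpl2301 (1.41), rpl402 (1.00) and rpl2302 (0.99) upward and rpl31 (−1.01), rpp203 (−0.98), rpl39 (−0.91), rpl44 (−0.79) and rpl1202 (−0.76) downward. Over IGR features they were rpl3602 (1.52), rpl44 (1.48), rpl803 (1.30), rpl26 (1.24) and rpl801 (1.07), and rpl21 (−3.42), rpl15 (−1.82), rpl35A02 (−1.77), rpl1502 (−1.09) and rpl301 (−1.03), none past the test.

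Against wildtype only the H3 ChIP signal could be compared, since no input values of the wildtype were used. Of the members, 67 IGR and 65 ORF features had values in that table, and 15 and 13 had none. Members were already below the array median in wildtype, with medians of −0.50 and −0.40 over IGR and −0.26 and −0.61 over ORF features. In Δhrp1 they were at −0.62, −0.94 and −0.69 over IGR and at −0.83, −0.85 and −1.39 over ORF. In Δmed15 they were at −0.43 and −0.79 over IGR and at −0.91 and −1.13 over ORF. Over ORF features every deletion sample thus lay below both wildtype samples, and over IGR features one Δmed15 sample lay between them. Both comparisons use the same wildtype samples, and the ChIP DNA of the wildtype carried Cy3 only, so the dye term rests on the deletion strains. Over all ORF features the wildtype samples had Spearman correlations of 0.30 to 0.38 with Δhrp1 samples, against 0.72 to 0.82 within Δhrp1.

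In Δhrp1 the H3 signal over ORF members fell at 16 features and rose at 3 of the 65 tested, and the median difference was −0.61 (all features 0.03). The share called lower was 24.6% (13.9% of all ORF features) and the share called higher 4.62% (13.7% of all), while the total of 29.2% was close to the 27.6% of all features. Of 52 small subunit ORF features, 13 fell and 1 rose, with a median of −0.96. The largest fall among the members was at rpl6, with 1.04 and 1.45 in wildtype against −3.98, −2.16 and −3.69 in Δhrp1 (log2 difference −4.38 ± 0.57, SE, limma adjusted p = 0.0058). In H3 over input the rpl6 ORF averaged −1.10 over the deletion samples. What part of its fall in undivided signal comes from the spot or the arrays was not tested. The ORF of rpl2001 stood at 1.43 and 1.35 in wildtype and at −1.05, −1.23 and −1.62 in Δhrp1 (−2.56 ± 0.35, adjusted p = 0.0063), and the separate spot of the same gene, rpl20-1-x2, at 0.94 and 0.65 against −2.89, −1.43 and −1.34 (−2.73, adjusted p = 0.014). For rpl1202, encoding L12 at the base of the stalk, 1.30 and 1.42 in wildtype compared with −0.83, −0.85 and −1.39 in Δhrp1 (−2.12 ± 0.36, adjusted p = 0.0083). Its copy rpl1201, with a coding sequence 99.6% identical, did not pass (−0.79, limma adjusted p = 0.187). The wildtype and Δhrp1 samples did not overlap at any of these genes. The same held at members that were not called, such as rpl3201, rpl2502 and rpl14, and its share over all features was not counted. The rpl37 ORF was at −0.85 and −1.31 in wildtype and at −5.87, −4.23 and −2.71 in Δhrp1 (−3.75). Its Δhrp1 mean of −4.27 was below the level over the deleted med15 gene (−4.02), so the size of its fall is uncertain. The others that fell were rpl31, rpl2501, whose product lies at the tunnel exit, rpl21, rpl35A01, rpl1801, rpl701, rpl803, rpp203, rpl22, rpl2102 and rpl2801, with log2 differences between −2.67 and −1.14. The stalk gene rpp203 went from −1.62 and −1.50 to −3.69, −3.61 and −2.58.

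Signal rose at the ORFs of rpl302 (3.13 ± 0.50, adjusted p = 0.0074), rpl1802 (1.59) and rpl30 (1.54). The rpl302 ORF was at −4.16 and −3.21 in wildtype, close to the level over the deleted med15 gene, against 0.05, −0.88 and −1.43 in Δhrp1. The ORF of its copy rpl301, which shares a run of 848 bases with it, was at 0.73 and 1.00 in wildtype. The size of the rise at rpl302 is therefore uncertain. The mean over rpl1802 in wildtype, −5.02, was below the level over the deleted med15 gene, so the size of its rise is also uncertain. The next highest, rpl301 (1.10) and rpl3201 (0.97), did not pass.

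Over IGR features in Δhrp1, 11 of 67 members fell (16.4%, against 8.36% of all features) and 3 rose (4.48%, against 4.02%), with a member median of −0.41 (all features −0.08). With floor values kept in the fit, 5 fell and 3 rose, 8 in place of 14. Of 49 small subunit IGR features, 8 fell and 0 rose in the main fit, with a median of −0.31. The IGR feature of rpl502, a 5S ribosomal RNA-binding protein gene, stood at 0.27 and 0.44 in wildtype and at −2.54, −3.43 and −1.31 in Δhrp1 (−3.03 ± 0.65, adjusted p = 0.024). That of rpp203 fell from 1.07 and 1.26 to −1.05, −0.68 and −2.94 (−2.26 ± 0.58, adjusted p = 0.036). The rpl35A01 feature was at 0.30 and 0.50 in wildtype and at −2.62, −1.58 and −1.30 in Δhrp1 (−2.29, adjusted p = 0.039). These 3 genes showed no overlap between the strains, and how often that held over all features was not counted. The fits of rpl15 (−3.49) and rpl21 (−4.79) left out 2 and 1 Δhrp1 samples at the floor of the table, and that of rpl2701 (−2.55) 1. The Δhrp1 value of rpl15 is therefore 1 sample, at −3.95, which is assumed to vary like the other groups. The other calls were rpl1202, rpl1002, whose product joins the subunit late in its maturation, rpl3702, rpl1603 and rpl2802, between −2.67 and −1.85. Those that rose were rpl35A02 (4.42, with the wildtype at −2.43 and −5.04), rpl20 (3.03) and rpl4102 (2.17, adjusted p = 0.042), the last from 0.02 and 0.22 to 3.04, 1.67 and 2.32. The lower wildtype sample of rpl35A02 is below the level over the deleted med15 gene (−4.02), so the size of its rise is uncertain. The members rpp103 (3.08) and rpl31 (1.97) did not pass. The genes rpl21, rpl1202, rpl35A01 and rpp203 fell on both feature types.

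**Figure D2:**
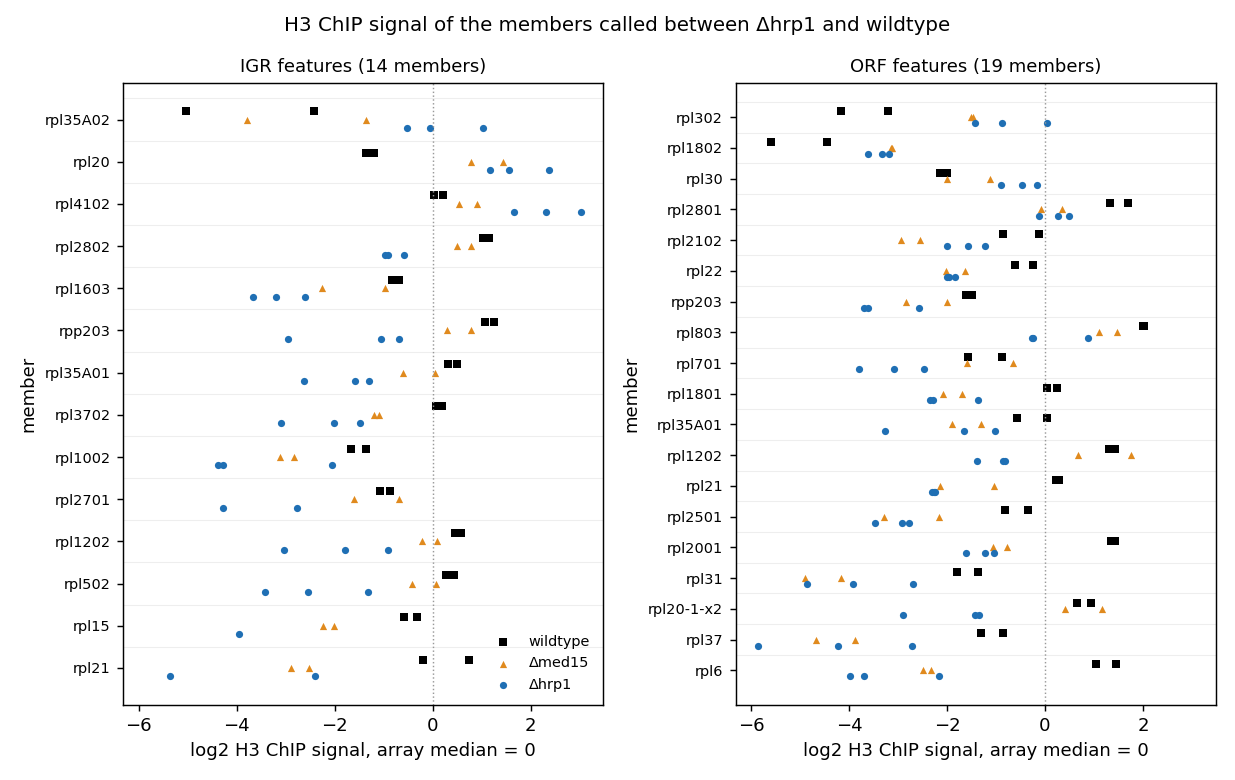
Log2 H3 ChIP signal (horizontal axis, array median 0) of the 14 IGR and 19 ORF members called between Δhrp1 and wildtype. Black squares are the 2 wildtype samples, orange triangles Δmed15 and blue circles Δhrp1, and values at the floor of the table are not drawn. At rpl6 in the ORF panel the Δmed15 and Δhrp1 samples all lie at −2.16 or lower, far from the wildtype squares at 1.04 and 1.45.

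In Δmed15 the H3 signal over ORF members fell at 7 of 65 features (10.8%, against 2.39% of all features) and rose at 1 (1.54%, against 2.99%), with a median of −0.29 (all features −0.02). The falls were at rpl37 (−4.05 ± 0.69), rpl31 (−3.58 ± 0.52), rpl6 (−3.44 ± 0.65), rpl35A02 (−3.0 ± 0.63), rpl2102 (−2.50), rpl1702 (−2.41) and rpl2001 (−2.11), with limma adjusted p-values from 0.017 to 0.046. The rpl6 ORF was at −2.49 and −2.32 in Δmed15 and the rpl2001 ORF at −1.06 and −0.77, near their Δhrp1 values. The separate spot of the rpl2001 gene, rpl20-1-x2, did not fall with it. That spot stood at 0.41 and 1.17 in Δmed15 against 0.94 and 0.65 in wildtype (−0.08, limma adjusted p = 0.957). The rpl35A02 ORF fell from 1.25 and 1.74 in wildtype to −1.42 and −0.90 in Δmed15, and in Δhrp1 it stood at −0.78, −0.23 and 1.12, between those levels. The Δmed15 means of rpl31 and rpl37 lay below the level over the deleted gene, so the sizes of these falls are uncertain. The rpl302 ORF rose, from −4.16 and −3.21 to −1.50 and −1.47 (2.50 ± 0.57, adjusted p = 0.049), while rpl1802 (1.81), rpl501 (1.08), rpp103 (1.07) and rpl1603 (1.00) did not pass. With the replicate number as a block, limma still called rpl6, rpl37, rpl31 and rpl35A02 (adjusted p from 0.012 to 0.039). With that block rpl1702, rpl2102, rpl2001 and rpl302 were not called. Of 52 small subunit ORF features, 3 fell and 0 rose in Δmed15 without the block, with a median of −0.59.

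Over IGR features in Δmed15 limma called 0 of 67 members (0.184% of all features), although 13 members had an unadjusted p under 0.05 (5 higher, 7.89% of all, and 8 lower, 11.1% of all). The member median was −0.09 (all features −0.07). The largest values were rpp103 (3.28), rpl2102 (2.60), rpl31 (2.59), rpl20 (2.47) and rpl42 (2.28) upward and rpl30 (−4.47), rpl21 (−3.62), rpl7-3 (−2.96), rpl6 (−2.45) and rpl1002 (−2.17) downward. The rpl30 IGR feature was at −2.18 and −1.12 in wildtype and at −3.95 and −6.68 in Δmed15, a mean of −5.32 that is below the level over the deleted gene, so the size of this difference is uncertain. At rpp103 the wildtype was at −0.97 and −4.785, against 1.03 and 0.08 in Δmed15. The lower wildtype sample is below that level, so the size of the rpp103 difference is also uncertain. With the replicate number as a block, limma called 3 members: rpl30 (adjusted p = 0.0091), rpl7-3 (adjusted p = 0.0365) and rpp103 (adjusted p = 0.048). The upward difference at rpl31 over its IGR feature, from −2.04 and −1.25 to 1.76 and 1.01, was opposite to the fall over its ORF.

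All counts against wildtype rest on both wildtype samples. Without either one, no member was called in any of the 4 comparisons. The Δmed15 ORF count was also 0 without either Δmed15 sample or without Δhrp1 replicate 3, 4 without Δhrp1 replicate 2 and 17 without Δhrp1 replicate 1, and without Δhrp1 replicate 1 the Δmed15 IGR count was 9. With arrays scaled to the same spread it was 7, and the Δmed15 ORF count was 13 when scaled, 14 without the dye term and 0 with Cy3 samples alone. The Δhrp1 IGR count was 9 without Δhrp1 replicate 2. The share of all features called was not set beside these counts. P stalk genes other than rpp203 did not pass in any of these comparisons without the replicate block, while with it rpp103 passed over IGR features in both strains (adjusted p = 0.0045 in Δhrp1) and rpp101 over ORF features in Δhrp1 (adjusted p = 0.016). Without the block their fits gave ORF differences in Δhrp1 of −0.93 for rpp0, −1.48 for rpp101, −1.03 for rpp202, −0.67 for rpp201, 0.46 for rpp102 and 0.90 for rpp103.

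Med15-myc over input was near the array median at large subunit IGR features and slightly above it over their ORFs in 2 of 3 samples, with no member passing the test as scanned. The IGR member median was 0.06, −0.21 and 0.16 in the 3 samples (fitted median 0.06, all features 0.05). The ORF member median was 0.38, 0.27 and −0.01 (fitted median 0.30, all features 0.02), close to the 0.31 of small subunit genes. The fitted ORF median was 0.17 without replicate 2, and −0.09 with the deposited ChIP values, which are not divided by input. As scanned, limma called no member and no feature of either array type (0.0% of all features), and at an unadjusted p under 0.05 no member passed (0.605% of all IGR features higher and 0.121% lower, 0.572% and 1.16% of all ORF features).

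The ratio was above 0 in all 3 samples for 22 of 78 ORF members (28.2%, against 11.7% of all) and below 0 in all 3 for 2 (2.56%, against 11.1%). Over IGR features 6 of 82 were above 0 in all 3 (7.32%, against 9.15%) and 10 below (12.2%, against 9.29%), near the background. With loess, limma called 21 ORF members higher (26.9%, against 3.0% of all features) and 1 lower (1.28%, against 6.39%), and with normexp none (0.265% of all features higher and 0.408% lower).

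**Figure D3:**
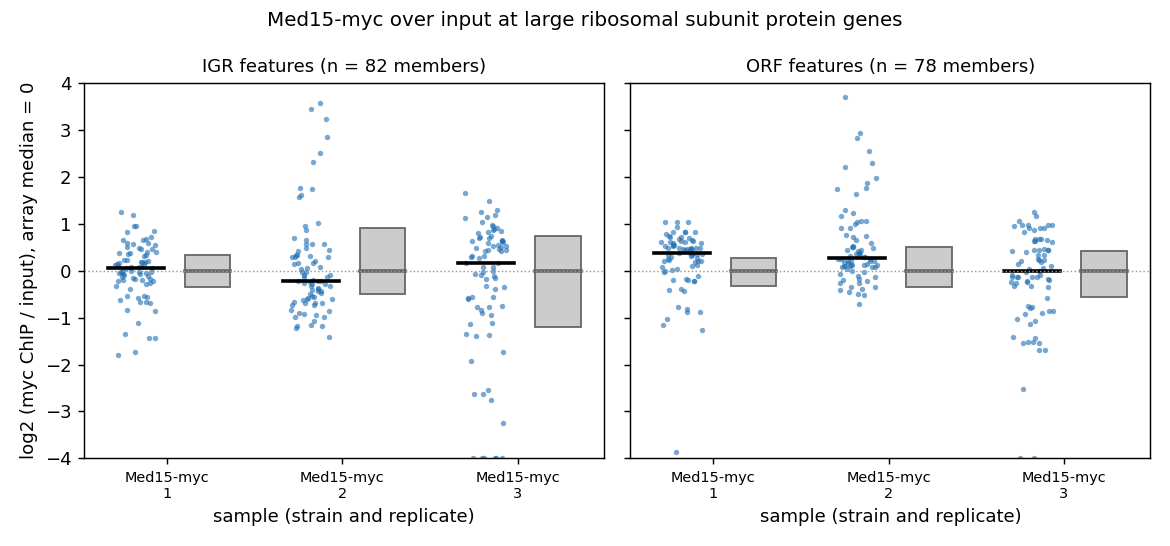
Log2 ratio of Med15-myc ChIP over input (vertical axis, array median 0, points beyond ±4 drawn at the edge) in each of 3 samples for 82 IGR and 78 ORF members. Blue points are members, black bars their medians and grey boxes the quartiles of all features. The ORF medians of samples 1 and 2, at 0.38 and 0.27, are the highest, and sample 2, with the other dye on the ChIP DNA, has the high outliers.

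Over ORF features rpl1001, encoding L10, was at 0.83, 0.24 and 1.24 (mean 0.77 ± 0.50, SD, n = 3) and called with loess (0.67 ± 0.15, SE, adjusted p = 0.00035). Its copy rpl1002 followed at 0.68, 0.07 and 1.17, and rpl7a stood at 0.83, 0.20 and 0.98 (mean 0.67 ± 0.41). All 3 genes were above 0 in every sample. The stalk genes rpp103, at 0.78, 0.34 and 0.62, and rpp0, at 0.46, 0.25 and 0.96, were also above 0 throughout, and rpp103 was called with loess (0.50, adjusted p = 0.014) whereas rpp0 was not (0.41, adjusted p = 0.061). The highest means, rpl39 (1.01) and rpl3402 (0.81), and that of rpl6 (0.64), rest mainly on sample 2, at 3.70, 2.29 and 2.82, with sample 3 below 0. At the low end, rpl35A02 was at −0.22, −0.72 and −0.80 and was called lower with loess (−0.62 ± 0.15, adjusted p = 0.0013). Its copy rpl35A01 was also below 0 in all 3 samples (−0.23, −0.13 and −1.43). The means of rpl3802 (−1.96), rpl1603 (−1.44), rpl102 (−1.39) and rpp203 (−0.84) each rest on 1 or 2 samples, and for rpl3802, rpl1603 and rpp203 the input was dim, under 1.2 times its local background, in a sample. The other stalk ORFs were at 0.30 (rpp201), 0.15 (rpp202), 0.07 (rpp101) and −0.04 (rpp102).

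Over IGR features rpl3202 was the only member called with normexp (−1.22, adjusted p = 0.041, with 1.13% of all features lower and 1.25% higher), and it was also called with loess (−0.87 ± 0.17, adjusted p = 4.5e-05). Its samples, at −0.67, −0.99 and −0.56, lay together below 0. With loess rpl3002, rpl1102, rpl37, rpl34 and rpl802 were also called lower (adjusted p from 0.00025 to 0.036), 6 of 82 in all (7.32%, against 6.85% of all features), and none higher (3.33% of all). The highest means, rpl3201 (0.96), rpl15 (0.77), rpl35 (0.64), rpl3601 (0.62) and rpl2401 (0.61), did not pass, and rpl3201 stood at −0.21, 3.44 and −0.36, so its place at the top came from sample 2. The lowest, rpl37 (−3.40), rpl3002 (−2.96), rpl1901 (−2.73), rpl35A02 (−1.89) and rpl301 (−1.62), had values of −8.18, −7.07, −7.48, −5.18 and −5.38 in sample 3. The input of rpl37, rpl1901 and rpl301 was dim in that sample, and for rpl37 and rpl3002 the other samples were also below 0, at −0.84 and −1.18, and −0.63 and −1.18. The stalk IGR features were between −0.49 (rpp101) and 0.17 (rpp103), with rpp0 at −0.30. Dim input touched 7 of 82 IGR members (11.6% of all features) and 5 of 78 ORF members (5.11%) in the Med15-myc samples, and 4 and 0 members (6.35% and 2.33%) in the H3 samples.

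The members showed little relation between these measures. Across members, the mean Med15-myc and H3 ratios had a Spearman correlation of 0.14 over 82 IGR members and 0.07 over 78 ORF members. Between the IGR and ORF features of the same gene it was −0.03 for Med15-myc and 0.05 for H3 (73 names). The points of each pair share arrays and chromatin preparations. Members with and without HomolD had close H3 medians over IGR features, −0.80 (44) and −0.85 (26), and IGR Med15-myc medians of 0.17 and −0.19. Those with HomolE stood at −0.59 (16) in H3 over IGR features against −0.89 (54) for those without. Over ORF features the order was the reverse, at −0.95 (16) with HomolE and −0.84 (50) without. Members with and without TATAAA stood at −0.94 (19) and −0.65 (51) in H3 over IGR features. None of these differences was tested. Over all genes, the mean H3 ratios of the IGR features of neighbouring genes had a Spearman correlation of 0.42 for divergent pairs, against 0.11 for convergent and 0.20 for tandem pairs. For Med15-myc these values were 0.11, 0.11 and 0.04.

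Large subunit genes are short, with a median coding length of 447 bases (1137 over all genes) and a span under 1500 bases in 72 of 73, and the sheared chromatin fragments were 600 to 1500 bases long. An ORF value can therefore include DNA next to the gene.

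Copied genes were taken as matched genes whose symbols share a stem and each end in a copy number. They made up much of the set: 51 of the matched genes fell into 24 families, 3 of them of 3 genes, giving 30 pairs. Genes without such a number, such as rpl15 beside rpl1502, were left out of these counts. Their coding sequences were 71.7% to 99.6% identical (median 85.4%), 8 pairs reached 90% or more, and the longest run of bases shared without a mismatch had a median of 27.5. In rpl301 and rpl302 that run was 848 bases, in rpl1201 and rpl1202 485 and in rpl1001 and rpl1002 149. DNA of one copy can hybridise to the ORF spot of the other over such runs. The 250 bases upstream shared at most 12 in a row (median 8.0).

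Copies lay closer together than other members over ORF features and not over IGR features. The median size of the difference between copies over ORF features was 0.19 for Med15-myc and 0.31 for H3, against 0.38 and 0.49 between genes that are not copies. Over IGR features it was 0.54 and 0.64, against 0.47 and 0.54. The part of cross-hybridisation in this was not tested. The rpl1001 and rpl1002 ORFs, 97.9% identical, differed by 0.13 ± 0.05 (SD, n = 3) in Med15-myc and by 0.03 ± 0.14 (n = 5) in H3, while their IGR features differed by 1.28 ± 2.34 in Med15-myc.

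The pairs that differed most by the size of any of these values were rpl1901 and rpl1902, rpl3601 and rpl3602, rpl301 and rpl302, rpl3201 and rpl3202, and rpl2301 and rpl2302. Their largest differences were over IGR features, at −3.17 ± 3.90, −2.08 ± 3.91 and 1.70 ± 2.37 in Med15-myc (rpl1901, rpl301 and rpl3201 minus their copies) and −2.10 ± 2.40 and 1.32 ± 1.76 in H3 (rpl3601 and rpl2301 minus theirs), with SDs over samples wider than the differences. Over ORF features the H3 ratio of rpl3201 exceeded that of rpl3202 by 1.68 ± 0.62 and in 5 of 5 samples. That of rpl1901 exceeded that of rpl1902 by 1.28 ± 0.72, also in 5 of 5. Both differences are larger than their spread. The coding sequences of these pairs are 84.9% and 89.9% identical, with longest shared runs of 20 and 50 bases. At the other end of identity, rpl1201 and rpl1202, 99.6% identical, differed by 0.90 ± 0.34 in Med15-myc over IGR features, rpl1201 being higher in 3 of 3 samples, and by −0.43 ± 0.80 over ORF features.

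**Figure D4:**
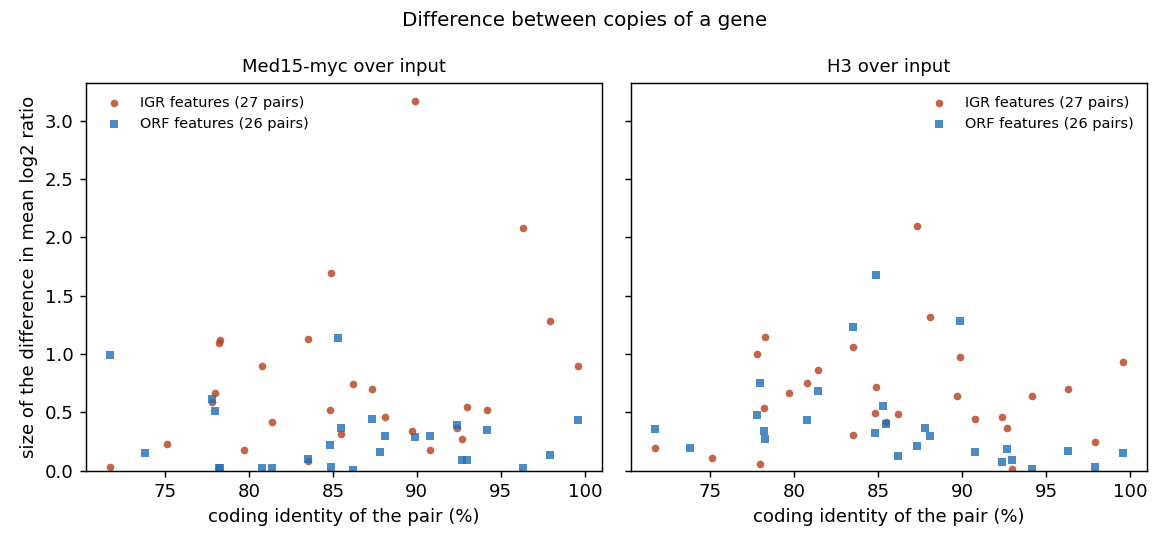
Size of the difference in mean log2 ratio between copies (vertical axis) against the identity of their coding sequences in percent (horizontal axis), for Med15-myc and H3, with 27 pairs over IGR features (red circles) and 26 over ORF features (blue squares). All ORF pairs with over 90% identity differ by less than 0.5 in both measures, while IGR pairs of that identity reach 2.08.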

How the data were processed

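Per the file headers, the scanner tables of the Med15-myc, Δmed15 and Δhrp1 arrays hold the median intensity of each spot and of its local background per dye, deposited by the authors without normalization. The deposited value table holds log2 values; set against the scanner tables, they equal the background-subtracted ChIP channel divided by a constant and floored, with no use of the input (correlation 0.991 or more). For the wildtype this form is inferred, since no scanner tables of it were used. Aligner, genome build and spot coordinates are not given in the sources used here.

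Ratios were taken of ChIP over input intensity as scanned, without background correction, and spots of a feature were averaged. Control spots and those marked missing were dropped, and arrays were median-centred. Wildtype comparisons used the deposited log2 values, also centred, with values at the floor treated as missing. Fits used limma 3.58.1 in R 4.3.3 (lmFit, eBayes) over all features: Med15-myc against 0, H3 by strain with a dye term, adjusted by Benjamini-Hochberg, threshold 0.05. The fits were run on simulated data with independent normal noise and no dye effect or floored spots. That run does not show how the fits perform on these arrays. Alternatives were normexp (offset 50), loess, dye and floor settings, dim input (under 1.2 times background), a replicate block and leaving out each sample. Promoters and coding identities came from RefSeq ASM294v3, read with Biopython 1.88.

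The members, lists and tests were chosen with earlier results of these data known. Named are members called at the threshold (up to 10 each way), the 5 largest each way where fewer than 5 were called, all P stalk genes, the 5 copied pairs that differ most and the deleted genes. Other genes and samples singled out, such as the 13 low on both feature types, were chosen after their values were seen. The labels state independent ChIP experiments, and precision is limited by how few arrays there are. The p-values measure the spread between experiments, but limma draws the spread of each feature towards that of all features. With loess the Med15-myc standard error was 0.1494 at every ORF member and 0.1647 to 0.1717 over IGR members. The loess p-values therefore hardly reflect the spread of a single gene.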

Additional observations from a re-analysis of the deposited data

How the results depend on the processing

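Every alternative named here was planned. Shares of all features called are given above for the main, normexp and loess settings only. Counts of members under other settings, here and above, therefore do not set the members apart from other features. With normexp the members called in H3 over input were 26 (Δmed15) and 42 (Δhrp1) over IGR and 10 and 31 over ORF features, and with loess 54, 45, 58 and 52, against 0 as scanned. The Δhrp1 IGR median was −0.92 with normexp and −0.57 with loess, and the ORF median −0.82 without the dye term, all below 0. For the difference of Δhrp1 and Δmed15 over input the median moved to 0.23 (loess) and −0.20 (deposited ChIP values) over IGR, and to 0.01 (normexp) and −0.10 (deposited ChIP values) over ORF features, with no member called. For Med15-myc the members called were 1 (normexp), 6 (loess) and 8 (deposited ChIP values) over IGR and 22 (loess) and 26 (deposited ChIP values) over ORF features, where the deposited values gave a median of −0.09. The deposited values are not divided by input, so their calls are not read as binding. Against wildtype, Δmed15 had 7 IGR members called with arrays scaled to the same spread and a median of −0.30 with Cy3 samples alone, and 14 (no dye term), 13 (scaled) and 0 (Cy3 alone) ORF members. Δhrp1 had 8 IGR members with floor values kept.

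The replicate block gave 3 (Δmed15) and 18 (Δhrp1) IGR members and 4 and 23 ORF members against wildtype, and difference medians of −0.04 (IGR) and 0.02 (ORF) with 0 called in place of the dye term. The deviations of same-numbered samples from their strain means correlated at 0.12 to 0.20 (IGR) and 0.02 to 0.33 (ORF) in H3 signal and at −0.64 to 0.52 over input. The numbers thus deviated together, weakly, in the H3 signal of both feature types, and with mixed sign over input. Over input the values were negative for number 1, whose samples have opposite dyes (−0.64 and −0.48). They were positive for number 2, whose samples share a dye (0.42 and 0.52), so number and dye cannot be told apart there. The blocked calls in Δmed15 are given beside the results. The wildtype has only 2 numbers.

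Leaving out 1 sample gave these ranges of members called: 0 to 9 and 0 to 16 (Δmed15 and Δhrp1 IGR signal), 0 to 17 and 0 to 20 (ORF signal), 0 to 1 (Δhrp1 over input, IGR) and 0 to 0 otherwise. The medians ranged from 0.00 to 0.07 and 0.17 to 0.38 (Med15-myc IGR and ORF), −0.30 to 0.14 and −0.50 to −0.38 (Δmed15 and Δhrp1 IGR signal), −0.52 to −0.13 and −0.71 to −0.52 (ORF signal), −0.87 to −0.75 and −0.84 to −0.76 (over input, IGR), −1.01 to −0.75 and −0.83 to −0.71 (ORF), and −0.04 to 0.14 and 0.11 to 0.24 (strain difference, IGR and ORF).

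Single values that reversed were rpl35A02 in Δmed15 over input, IGR, which became −0.66 with loess, and rpl3402 and rpl6 in Med15-myc, ORF, which became −1.02 and −1.56 with the deposited ChIP values. Of the other single values, 1047 kept direction and side of the threshold, 149 lost a call, 74 gained one and 71, called under neither setting, changed sign. The causes were not tested. Dim or floored spots limit the lowest members.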
